A study of Mus musculus with 12 samples.

Results

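Levels of 10 genes of the lipid-associated macrophage state, *Spp1*, *Lgals3*, *Trem2*, *Gpnmb*, *Itgax*, *Cd9*, *Cd63*, *Apoe*, *Fabp5* and *Abca1*, were compared in tissue from beside the mouse spine after surgery. The genes were chosen by their symbols among the 18996 genes of the table, with earlier results of these data known. All 10 were present and passed the filter on low counts that left 14765 genes for testing. RNA sequencing covered 12 BALB/c mice aged 5 to 7 weeks, 4 in each of 3 groups, and each mouse gave 1 library. No operation mice had no surgery and gave paraspinal soft tissue. SHAM mice had paraspinal soft tissue removed while the laminae were kept, and Laminectomy mice also lost laminae and spinous processes at the thoracolumbar junction; both operated groups gave soft tissue together with scar, collected a week after surgery. The labels name no engineered allele and no agent for any group. No operation tissue thus differs from the operated tissue in what was collected as well as in the surgery, and no tissue was sorted by cell type.

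Lipid-associated macrophages are macrophages that have taken up lipid from dying cells, myelin or fat. The receptor TREM2, which signals through the adaptor TYROBP, senses lipids and lipoproteins and drives the genes of lipid handling and lysosomes that define the state. In wound and scar tissue such macrophages are known as a source of osteopontin, the secreted product of *Spp1*, although osteoclasts, osteoblasts and regenerating muscle cells also make *Spp1*.

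Levels are given as CPM, the counts of a gene scaled to a common library size after TMM normalisation, for mice 1 to 4 of each group in that order. Libraries held between 16802989 and 18077868 counts, so depth differed little between mice. SHAM mouse 1 stood apart from the other SHAM mice: its 6 markers of regenerating muscle summed to 3.77 CPM against 1220 to 2117 CPM, its osteoblast markers to 2.70 CPM, and its macrophage markers to 5253 CPM, the highest of the 12 mice. No operation mouse 2 held the highest sums of osteoclast markers (761.9 CPM) and osteoblast markers (575 CPM) of its group.

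The reference holds 12 promoter windows for 9 of the 10 genes (*Fabp5* has no entry), more than 1 for *Spp1* and *Apoe*. Of these genes, 4 carry, in the 250 bases before a start site, a motif of a factor family known from macrophages. The windows with a match are shown because these genes rose together after surgery, and *Abca1* was among those lower in Laminectomy than in SHAM mice. The motifs searched on both strands were CACGTG (the E-box of MiT/TFE factors), TCATGTG (the M-box), TGANTCA (AP-1), the direct repeat of LXR, DR4, and AGGAAGT (the PU.1 core). Each sequence reads 5′ to 3′ on the strand of the gene in RefSeq's GRCm38.p6, capitals mark the matched motif, and bases inside annotated exons are left off:
*Spp1*, chr5:104434861-104435110, plus strand: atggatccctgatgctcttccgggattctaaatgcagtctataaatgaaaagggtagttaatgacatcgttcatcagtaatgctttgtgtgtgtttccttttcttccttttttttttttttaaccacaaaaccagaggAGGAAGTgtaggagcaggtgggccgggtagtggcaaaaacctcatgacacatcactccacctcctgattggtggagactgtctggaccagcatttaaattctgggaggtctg
*Trem2*, chr17:48346151-48346400, plus strand: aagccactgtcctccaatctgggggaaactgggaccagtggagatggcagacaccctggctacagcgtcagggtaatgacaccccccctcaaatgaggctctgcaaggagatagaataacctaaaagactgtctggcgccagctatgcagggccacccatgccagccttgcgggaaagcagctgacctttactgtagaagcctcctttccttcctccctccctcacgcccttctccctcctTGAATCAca
*Itgax*, chr7:128129300-128129525, plus strand: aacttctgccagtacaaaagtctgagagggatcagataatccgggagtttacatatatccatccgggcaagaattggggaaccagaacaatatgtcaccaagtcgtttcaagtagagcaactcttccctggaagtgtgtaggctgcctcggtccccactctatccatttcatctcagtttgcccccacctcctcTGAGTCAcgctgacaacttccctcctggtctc
*Abca1*, chr4:53159989-53160145, minus strand: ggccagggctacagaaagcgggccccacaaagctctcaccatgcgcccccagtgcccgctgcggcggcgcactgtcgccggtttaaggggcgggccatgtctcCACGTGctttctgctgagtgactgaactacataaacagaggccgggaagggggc
*Spp1* held the PU.1 core in the window shown and no motif in its other window, *Trem2* and *Itgax* held the AP-1 motif, and *Abca1* held the E-box. Among the 32851 promoters of the reference, 7.69% held the PU.1 core, 6.75% the AP-1 motif and 6.02% the E-box. The M-box stood in 3.25% and the DR4 repeat in 0.0152% of all promoters, and in none of the windows of the 9 genes. The share of all promoters that held any of these motifs was not counted, so the 4 genes have no share to be set beside. A match describes the letters of the window and was not tested as a site.

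Of the 10 genes, 9 were higher in both operated groups than in No operation mice, and *Cd9* was not called in either comparison. Between SHAM and No operation mice, 9 of 10 rose, none fell, and their levels did not overlap between the groups in 9 of 10; the median of their log2 fold changes was 2.50. Of all genes tested, 25.7% were called higher in that comparison and 26.7% were higher without overlap, with a median log2 fold change of -0.00. Between Laminectomy and No operation mice the counts were 9 called higher and 8 higher without overlap, with a median of 2.38, against 24.2% and 27% of all genes tested and a median of 0.01. Between Laminectomy and SHAM mice no member was called by edgeR, as for all genes tested (0%). At an unadjusted p below 0.05 there were 2 of the 10, *Apoe* and *Abca1*, both lower in Laminectomy mice, against 2359 of all genes tested (16%), and DESeq2 called these same 2 while giving no adjusted p for *Spp1*. A gene was called at a Benjamini-Hochberg adjusted p below 0.05 over all genes tested and an absolute log2 fold change above 0.5. Without SHAM mouse 1 the counts of members called were 9, 9 and 0 in the same order of comparisons. Of all genes tested, 25.1% were called lower in SHAM and 24.4% in Laminectomy mice against No operation. The 2 comparisons with No operation mice share those 4 mice and are not independent of each other. As the 10 genes were chosen with results known, their counts beside the shares of all genes are no independent evidence. In bulk tissue, more cells of a type and more RNA per cell cannot be told apart.

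**Figure D1:**
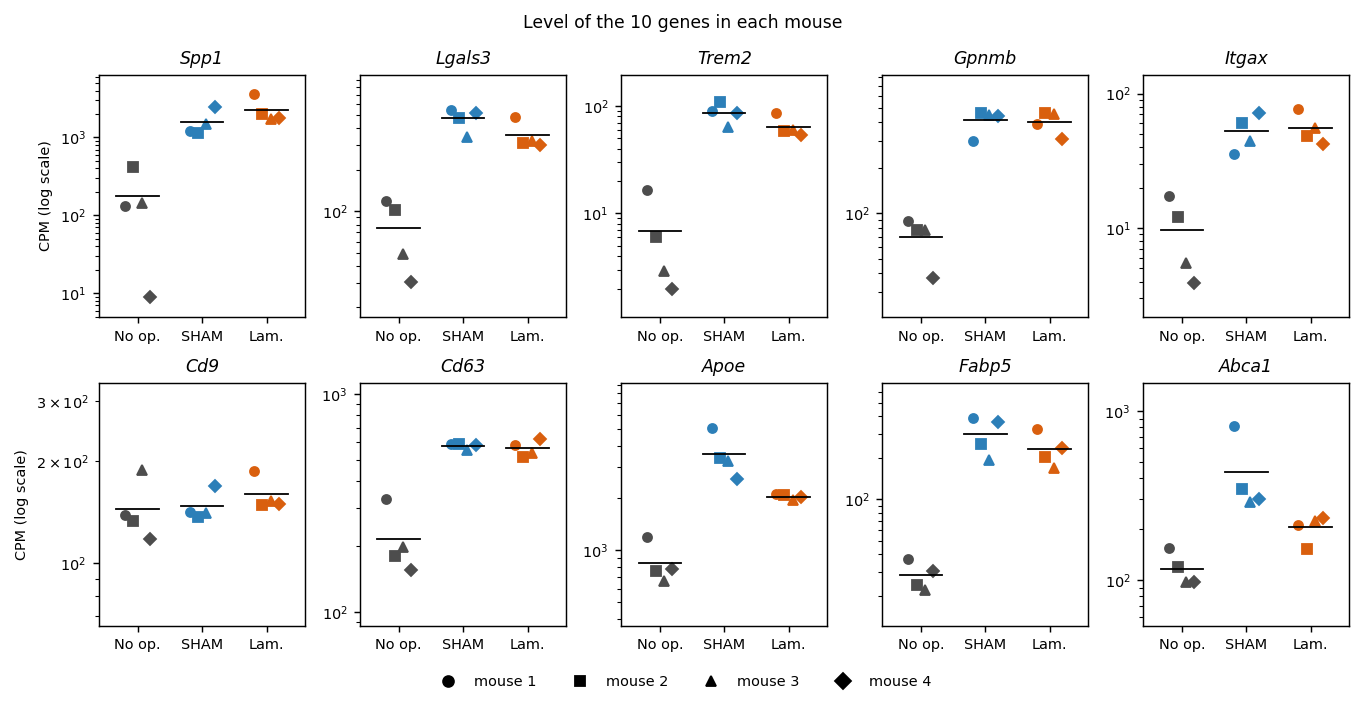
CPM on a log axis (vertical) of the 10 genes in each mouse by group (No op., SHAM and Lam. for Laminectomy); symbols are mice 1 to 4 of a group and horizontal lines the arithmetic means. All genes but *Cd9* sit higher in SHAM than in No operation mice without overlap, and *Apoe* and *Abca1* are lower in Laminectomy than in SHAM mice.

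*Spp1* (gene 20750, chromosome 5 of GRCm38, 104435111 to 104441053, plus strand) encodes osteopontin, a secreted phosphoprotein that binds CD44 and integrins. Its level was 131, 424, 145 and 8.97 CPM in the No operation group, 1208, 1150, 1500 and 2439 CPM in the SHAM group and 3566, 2014, 1718 and 1780 CPM in the Laminectomy group. Every operated mouse was above every No operation mouse, and the 2 operated groups overlapped, with Laminectomy mouse 1 and SHAM mouse 4 the highest. The log2 fold change was 3.15 (SE 0.80, adjusted p = 0.00511, quasi-likelihood test of edgeR) in SHAM and 3.68 (SE 0.82, adjusted p = 0.00248, edgeR) in Laminectomy mice, both against No operation. Laminectomy and SHAM mice differed by 0.53 (SE 0.74, adjusted p = 0.75, edgeR), with a 95% interval for the fold of 0.529 to 3.93. The highest No operation value was 47.3 times the lowest. Without mouse 2 of that group the log2 fold changes were 4.05 (SE 0.81) and 4.57 (SE 0.83), and without its mouse 4 they were 2.74 (SE 0.50) and 3.28 (SE 0.51). The biological coefficient of variation of *Spp1*, 69.8%, exceeded that of 96.4% of genes. An annotated gene that is not in the table, *Gm42793*, shares 309 bases of exon with *Spp1* on the same strand.

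*Lgals3* (gene 16854, chromosome 14, 47373860 to 47386167, plus strand), a galectin secreted by macrophages that also binds damaged lysosomes, was at 118, 102, 48.9 and 30.7 CPM in the No operation group, 546, 474, 347 and 519 CPM in the SHAM group and 482, 315, 323 and 304 CPM in the Laminectomy group. The operated groups overlapped each other and neither reached down to the No operation mice. It rose by a log2 fold change of 2.65 (SE 0.38, adjusted p = 0.000122, edgeR) in SHAM and 2.25 (SE 0.38, adjusted p = 0.000399, edgeR) in Laminectomy mice, and the operated groups differed by -0.40 (SE 0.36, adjusted p = 0.602, edgeR). Laminectomy mouse 1 was again the highest of its group.

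Among the receptors, *Trem2* (gene 83433, chromosome 17, 48346401 to 48352276, plus strand) was at 16.7, 5.98, 2.93 and 1.96 CPM in the No operation group, 90.0, 109, 63.0 and 85.6 CPM in the SHAM group and 85.1, 58.3, 59.7 and 53.6 CPM in the Laminectomy group. No operation mouse 1 was the highest of its group, and the operated groups overlapped. The log2 fold change of *Trem2* was 3.66 (SE 0.54, adjusted p = 0.000149, edgeR) in SHAM and 3.22 (SE 0.53, adjusted p = 0.000372, edgeR) in Laminectomy mice. Without No operation mouse 1 these values were 4.57 and 4.13. Laminectomy and SHAM mice differed by -0.44 (SE 0.48, adjusted p = 0.677, edgeR), with an interval for the fold of 0.387 to 1.41.

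*Gpnmb* (gene 93695, chromosome 6, 49036518 to 49058182, plus strand), a transmembrane glycoprotein of late endosomes and lysosomes, was at 88.4, 77.8, 77.1 and 37.0 CPM in the No operation group, 300.1, 461, 448 and 441 CPM in the SHAM group and 392, 462, 452 and 312 CPM in the Laminectomy group. Both operated groups covered almost the same range, and the difference between them was -0.03 (SE 0.25, adjusted p = 0.966, edgeR), with an interval for the fold of 0.701 to 1.37. Against No operation mice the log2 fold change was 2.56 (SE 0.26, adjusted p = 1.54e-05, edgeR) in SHAM and 2.53 (SE 0.26, adjusted p = 2.11e-05, edgeR) in Laminectomy mice.

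*Itgax* (gene 16411, chromosome 7, 128129526 to 128150657, plus strand), which encodes the integrin CD11c of macrophages and dendritic cells, was at 17.3, 12.2, 5.53 and 3.93 CPM in the No operation group, 35.3, 60.2, 44.7 and 72.2 CPM in the SHAM group and 77.1, 48.2, 55.5 and 42.2 CPM in the Laminectomy group. It rose without overlap in both operated groups, by 2.45 (SE 0.42, adjusted p = 0.000427, edgeR) and 2.52 (SE 0.42, adjusted p = 0.000414, edgeR) on the log2 scale, and the operated groups differed by 0.07 (SE 0.39, adjusted p = 0.944, edgeR). Of the 6 tested dendritic cell markers, 2 were called higher and none lower in SHAM mice, and 2 higher and 2 lower in Laminectomy mice. The shares of all genes tested were 25.7% higher and 25.1% lower in SHAM, and 24.2% and 24.4% in Laminectomy mice. The summed level of all 7 dendritic cell markers was 27.8 to 40.4 CPM in No operation, 31.2 to 32.6 CPM in SHAM and 25.6 to 33.4 CPM in Laminectomy mice. Their sums overlapped between all 3 groups, and the part of dendritic cells in the level of *Itgax* was not tested. *Itgax* was the only one of the 10 genes with estimated counts that were not whole.

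Of the tetraspanins, membrane proteins that organise other membrane proteins into domains, *Cd63* (gene 12512, chromosome 10, 128896231 to 128912822, plus strand), found in late endosomes and exosomes, was at 330, 180, 198 and 156 CPM in the No operation group, 587, 589, 552 and 584 CPM in the SHAM group and 580, 516, 539 and 621 CPM in the Laminectomy group. It rose by a log2 fold change of 1.42 (SE 0.20, adjusted p = 0.000116, edgeR) in SHAM and 1.38 (SE 0.20, adjusted p = 0.000165, edgeR) in Laminectomy mice. *Cd9* (gene 12527, chromosome 6, 125460266 to 125494760, minus strand), found at the surface of many cell types, was at 139, 133, 188 and 118 CPM in the No operation group, 141, 137, 141 and 169 CPM in the SHAM group and 187, 149, 152 and 149 CPM in the Laminectomy group. All 3 groups overlapped for *Cd9*, and its log2 fold change was 0.02 (SE 0.15, adjusted p = 0.896, edgeR) in SHAM and 0.14 (SE 0.15, adjusted p = 0.424, edgeR) in Laminectomy mice against No operation, with intervals for the fold of 0.834 to 1.24 and 0.905 to 1.34. With libraries scaled by total counts these values were 0.28 (adjusted p = 0.107, edgeR) and 0.46 (adjusted p = 0.0149, edgeR), below the fold needed for a call. On the strand opposite to *Cd9*, *Gm26728*, which is not in the table, shares 218 bases of exon.

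Of the 10 genes, *Apoe* and *Abca1*, which handle cholesterol, had the largest fitted differences between the operated groups. *Apoe* (gene 11816, chromosome 7, 19696244 to 19701310, minus strand), the apolipoprotein that carries cholesterol out of macrophages and binds TREM2, was at 1187, 759, 662 and 784 CPM in the No operation group, 5083, 3411, 3278 and 2556 CPM in the SHAM group and 2098, 2077, 1947 and 2026 CPM in the Laminectomy group. The 3 groups did not overlap: No operation mice were lowest, Laminectomy mice lay in a narrow range between, and SHAM mice were highest with mouse 1 at the top. The log2 fold change against No operation was 2.08 (SE 0.24, adjusted p = 3e-05, edgeR) in SHAM and 1.26 (SE 0.23, adjusted p = 0.00077, edgeR) in Laminectomy mice. Laminectomy mice were below SHAM mice by 0.569-fold (95% interval 0.415 to 0.779), which did not pass the test over all genes (adjusted p = 0.149, edgeR) and gave p = 0.0286 by a two-sided exact permutation test, the smallest that 4 mice against 4 allow.

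*Abca1* (gene 11303, chromosome 4, 53030789 to 53159988, minus strand), the transporter that loads cholesterol onto apolipoproteins, was at 154, 119, 96.6 and 97.6 CPM in the No operation group, 809, 344, 290 and 301 CPM in the SHAM group and 212, 153, 223 and 232 CPM in the Laminectomy group. SHAM mice were above both other groups, SHAM mouse 1 far above the rest, while Laminectomy mouse 2 lay just below No operation mouse 1. The log2 fold change was 1.90 (SE 0.33, adjusted p = 0.000413, edgeR) in SHAM mice, 1.42 without SHAM mouse 1, and 0.81 (SE 0.32, adjusted p = 0.0441, edgeR) in Laminectomy mice. The call in Laminectomy mice was lost when any of 7 mice was left out (No operation mouse 2, 3 or 4, SHAM mouse 2, or Laminectomy mouse 1, 3 or 4), at log2 fold changes of 0.73 to 0.82 and adjusted p = 0.05 to 0.107 (edgeR). Laminectomy mice stood at 0.470-fold of SHAM mice (95% interval 0.305 to 0.724, adjusted p = 0.151, edgeR; p = 0.0286 by the exact permutation test).

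Of all genes tested, 5.07% were lower in Laminectomy than in SHAM mice without overlap, against 2 of these 10. Without SHAM mouse 1 the log2 difference between Laminectomy and SHAM mice was -0.59 for *Apoe* and -0.60 for *Abca1*, in place of -0.81 and -1.09. DESeq2, the test that the study applied, called both (adjusted p = 0.0153 for *Apoe* and 0.0264 for *Abca1*) in a comparison where it called 601 genes and edgeR none.

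*Fabp5* (gene 16592, chromosome 3, 10012585 to 10016610, plus strand), a fatty acid carrier of macrophages and other cells, was at 36.8, 24.1, 21.8 and 30.1 CPM in the No operation group, 387, 252, 194 and 363 CPM in the SHAM group and 324, 203, 170 and 236 CPM in the Laminectomy group. The lowest operated mouse was well above the highest No operation mouse. The log2 fold change was 3.404 (SE 0.29, adjusted p = 4.97e-06, edgeR) in SHAM and 3.05 (SE 0.28, adjusted p = 1.18e-05, edgeR) in Laminectomy mice, and the operated groups differed by -0.36 (SE 0.26, adjusted p = 0.526, edgeR). Its relative *Fabp4*, abundant in fat cells, was at 812 ± 149 CPM (SD, n = 4) in No operation, 419 ± 267 CPM in SHAM and 207 ± 117 CPM in Laminectomy mice. It changed by -1.97 on the log2 scale (SE 0.49, adjusted p = 0.00479, edgeR) in Laminectomy mice, and its value in SHAM mice was -0.96 (SE 0.48, adjusted p = 0.101, edgeR). Of the 6 adipocyte markers, one of which is *Fabp4*, 3 fell in SHAM and 6 in Laminectomy mice.

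**Figure D2:**
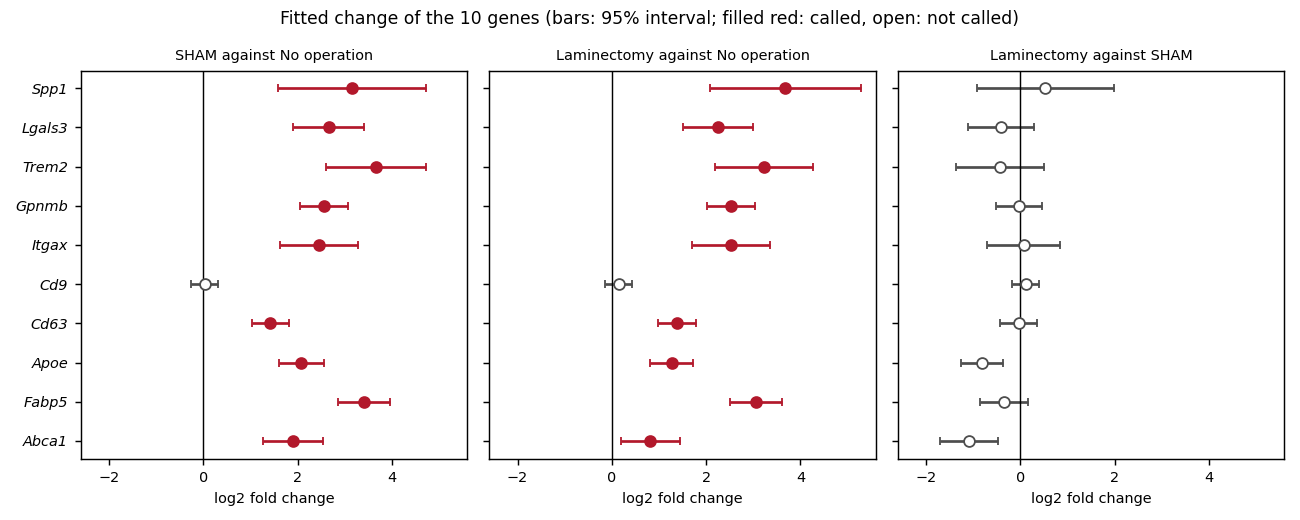
Fitted log2 fold change (horizontal) of the 10 genes in the 3 comparisons, with bars of 1.96 standard errors to each side, filled where the gene was called and open where it was not. Only *Cd9* is open against No operation mice, and between the operated groups the bars of *Apoe* and *Abca1* are the 2 that stay below 0.

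The 10 genes together took 0.108% to 0.188% of all counts in No operation mice, 0.723% to 0.904% in SHAM mice and 0.624% to 0.840% in Laminectomy mice. *Spp1* and *Apoe* made up most of these counts in the operated mice. *Spp1* held 13.1% to 32.4% of the members' counts in SHAM mice and 30.5% to 44.6% in Laminectomy mice, and *Apoe* held 33.9% to 55.3% and 26.2% to 35.2%. Both shares overlapped between the operated groups through SHAM mouse 4. On the scale of CPM per kilobase of transcript, which allows levels of different genes to be set side by side, *Apoe* was highest in No operation mice at 602 ± 165 (SD, n = 4) and in SHAM mice at 2544 ± 759, above the next gene without overlap in both. In Laminectomy mice *Spp1*, at 1506 ± 580, and *Apoe*, at 1447 ± 47.8, overlapped at the top. *Spp1* was at 118 ± 116 CPM per kilobase in No operation mice, where it overlapped with *Cd63* and *Cd9*, and at 1044 ± 396 in SHAM mice, where it came second. *Cd63*, *Lgals3* and *Fabp5* followed in that order in both operated groups, *Lgals3* and *Fabp5* overlapping each other, and *Itgax* had the lowest mean in every group, overlapping its neighbour in No operation and Laminectomy mice, from 2.40 ± 1.53 in No operation to 13.8 ± 3.77 in Laminectomy mice.

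The 10 markers used for macrophages (*Csf1r*, *Adgre1*, *Itgam*, *Aif1*, *Cd68*, *C1qa*, *C1qb*, *C1qc*, *Fcgr1* and *Mertk*), none of them a member, moved with these genes. All 10 rose in SHAM and in Laminectomy mice, with median log2 fold changes of 2.32 and 1.48. All 10 were lower on average in Laminectomy than in SHAM mice, with a median of -0.70; edgeR called none of them, 7 had an unadjusted p below 0.05 and DESeq2 called 1. Their summed level was 530 to 1185 CPM in No operation, 2827 to 5253 CPM in SHAM and 1872 to 2809 CPM in Laminectomy mice, without overlap between any of the groups. Each gene was therefore also expressed as its log2 CPM minus the mean log2 CPM of the 10 markers in the same mouse.

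Relative to the markers, *Spp1* was at 0.79, 3.33, 1.91 and -1.72 in No operation mice, 1.74, 2.32, 2.87 and 3.43 in SHAM mice and 4.09, 3.74, 3.56 and 3.61 in Laminectomy mice on the log2 scale. Every Laminectomy mouse was above every SHAM and every No operation mouse, with a mean difference of 1.16 from SHAM and 2.68 from No operation mice, while SHAM and No operation mice overlapped (difference 1.52). Relative to the markers, 32.6% of all genes tested were higher without overlap in Laminectomy than in SHAM mice, and 1.06% in Laminectomy than in No operation mice. The separation of *Spp1* depended on the reference: with *Csf1r* alone Laminectomy and SHAM mice overlapped (difference 1.07), and with *Cd68* alone Laminectomy and No operation mice overlapped (difference 1.82). Leaving out each mouse in turn, the differences of *Spp1* from No operation mice ran from 0.58 to 2.27 in SHAM and from 1.74 to 3.43 in Laminectomy mice, lowest without No operation mouse 4 and highest without No operation mouse 2. *Trem2* was at -2.18, -2.79, -3.67 and -3.85 in No operation mice, -2.005, -1.07, -1.70 and -1.40 in SHAM mice and -1.29, -1.36, -1.29 and -1.44 in Laminectomy mice. It was higher in both operated groups without overlap, by 1.58 in SHAM, where 0.542% of all genes tested were higher without overlap, and by 1.78 in Laminectomy mice. With *Cd68* alone as the reference, *Trem2* overlapped with No operation mice in both comparisons (differences 1.00 and 0.92, exact permutation p = 0.0571 for each). *Fabp5* was 1.16 higher in Laminectomy mice than without surgery, a difference of 0.30 with overlap when *Cd68* alone was the reference, and *Itgax* by 0.83 with the groups almost touching.

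On the same scale, SHAM and No operation mice overlapped for *Fabp5* (difference 0.87), *Gpnmb* (0.11), *Lgals3* (0.33), *Itgax* (0.12), *Apoe* (-0.43) and *Abca1* (-0.72). Other references separated some of them: with *Csf1r* alone *Fabp5* was higher in SHAM mice without overlap (1.51). *Apoe* and *Abca1* were lower in SHAM mice without overlap with *Cd68* alone (-1.01 and -1.30) and without the C1q genes (-0.58 and -0.87). *Gpnmb* was 0.71 and *Lgals3* 0.55 higher on average in Laminectomy than in No operation mice, both with overlap, and with *Csf1r* alone as the reference both separated (1.25 and 1.09). Between Laminectomy and SHAM mice *Gpnmb* differed by 0.61 with overlap. Relative to the markers, Laminectomy mice were below No operation mice without overlap, with differences of -0.57 for *Apoe* and -1.05 for *Abca1*, and with *Csf1r* alone both overlapped (-0.03 and -0.51). Between the operated groups their relative difference was -0.14 and -0.33 with overlap, so the operated groups overlapped in these values where they had not in CPM. *Cd9* and *Cd63* were lower than in No operation mice in both operated groups without overlap, with differences of -2.46 and -1.02 in SHAM and of -1.71 and -0.43 in Laminectomy mice. For *Cd63* the separation in Laminectomy mice was from 2.091 to 2.092; without the C1q genes in the reference the groups overlapped (-0.65), and with *Csf1r* alone they overlapped with a difference of 0.11. With *Csf1r* alone SHAM and No operation mice also overlapped for *Cd63* (-0.39). Of all genes tested, 86.5% were lower without overlap on this scale in SHAM and 78% in Laminectomy mice, so lower values there were shared with most genes. Both *Cd9* and *Cd63* were higher in Laminectomy than in SHAM mice without overlap, by 0.75 and 0.59 (exact permutation p = 0.0286 for each), where 32.6% of all genes tested were; with *Cd68* alone as the reference both overlapped (0.47 and 0.31). In two-sided exact permutation tests of these values, groups without overlap gave p = 0.0286, the smallest reachable. After a Benjamini-Hochberg adjustment over the 30 values of a scale, none passed on this scale, while in CPM 9, 8 and 2 of the 10 genes passed in the 3 comparisons, the 2 being *Apoe* and *Abca1* between Laminectomy and SHAM mice; as the genes were chosen with results known, these counts are no independent evidence. With *Cd68* alone as the reference, *Gpnmb*, *Lgals3* and *Itgax* turned from higher to lower in both comparisons with No operation mice.

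**Figure D3:**
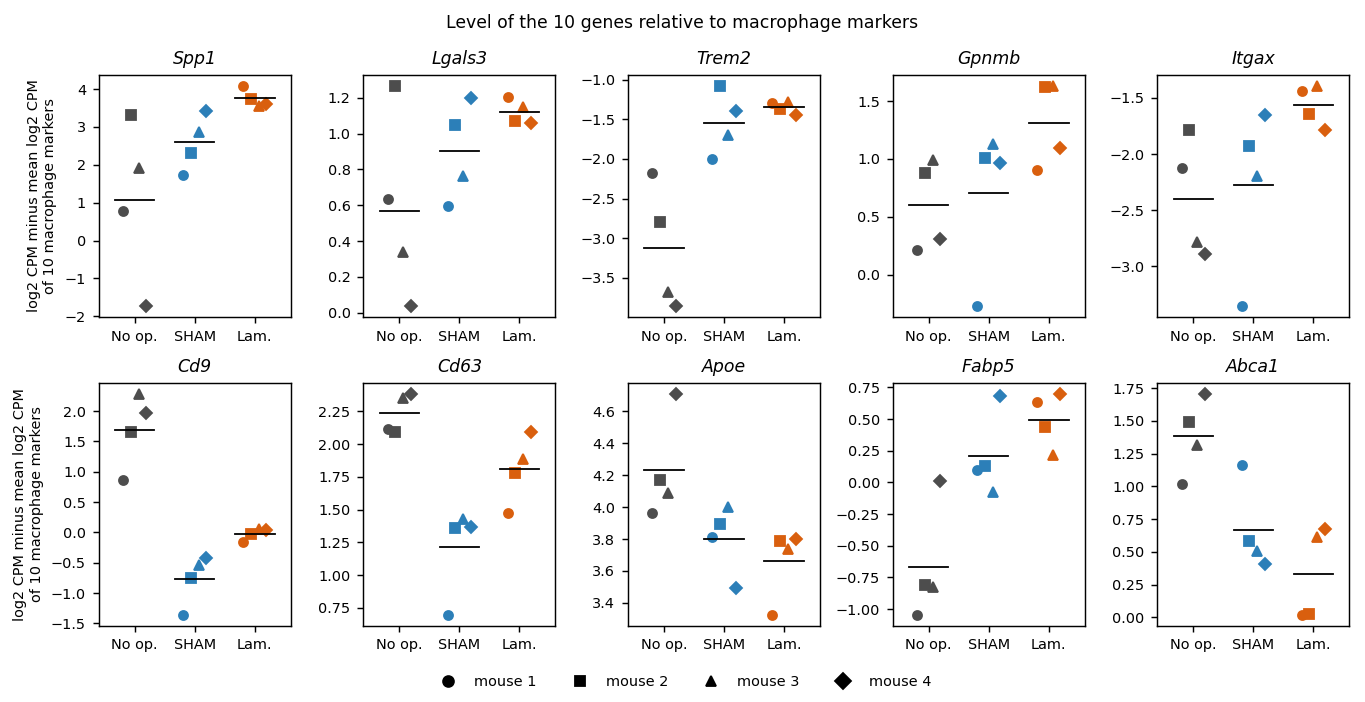
Log2 CPM of the 10 genes minus the mean log2 CPM of 10 macrophage markers in the same mouse (vertical), by group; symbols are mice 1 to 4 and lines the means. *Spp1* is highest in the 4 Laminectomy mice, *Trem2* is higher in both operated groups than in No operation mice, and *Cd9* is lower.

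Markers of other cells that make *Spp1* also moved between the groups. The 7 osteoclast markers summed to 108 to 762 CPM in No operation, 506 to 776 CPM in SHAM and 1256 to 2727 CPM in Laminectomy mice, with 3 of 7 called higher and 1 lower in SHAM and 6 of 7 higher in Laminectomy mice. *Ctsk*, the collagen-degrading cathepsin of osteoclasts, went from 201 ± 145 CPM (SD, n = 4) in No operation to 483 ± 65.7 CPM in SHAM and 1132 ± 425 CPM in Laminectomy mice. Between Laminectomy and SHAM mice all 7 were higher without overlap, with a median log2 fold change of 1.96, against 5.05% of all genes tested; edgeR called none of the 7, 6 had an unadjusted p below 0.05 and DESeq2 called 4. The calls of this list against No operation mice moved with the alternatives, from 0 to 4 higher in SHAM and 3 to 6 higher in Laminectomy mice.

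The 7 osteoblast markers summed to 18.9 to 575 CPM in No operation, 2.70 to 122 CPM in SHAM and 643 to 1807 CPM in Laminectomy mice. All 7 were higher in Laminectomy than in SHAM mice without overlap (median log2 fold change 3.45, none called by edgeR, 7 at an unadjusted p below 0.05, 1 by DESeq2). Against No operation, edgeR called 2 of the 7 lower in SHAM mice, where 25.1% of all genes tested were, and 0 in Laminectomy mice. DESeq2 called 4 lower in SHAM and 2 higher in Laminectomy mice. *Ibsp*, which encodes bone sialoprotein and belongs with *Spp1* to the SIBLING family of bone matrix proteins, was at 74.8 ± 105 CPM in No operation, 50.1 ± 44.9 CPM in SHAM and 987 ± 523 CPM in Laminectomy mice (SD, n = 4). Of the 3 tested SIBLING relatives of *Spp1*, edgeR called none between Laminectomy and SHAM mice or against No operation mice. Between Laminectomy and SHAM mice 2 had an unadjusted p below 0.05 in edgeR, both higher in Laminectomy mice, and DESeq2 called 0. Against No operation 1 was lower in SHAM and 1 higher in Laminectomy mice at an unadjusted p below 0.05. DESeq2 likewise called 1 lower in SHAM and 1 higher in Laminectomy mice. Laminectomy mouse 1 had the highest level of *Spp1* and of the osteoclast markers among the 12 mice, and also the highest macrophage marker sum of its group (2809 CPM). No operation mouse 2 led its group in *Spp1*, in osteoclast and osteoblast markers, and also in neutrophil markers (1794 CPM against 15.7 to 721 CPM) and monocyte markers (586 CPM against 75.8 to 315 CPM). The part of any of these cells in the level of *Spp1* was not tested.

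**Figure D4:**
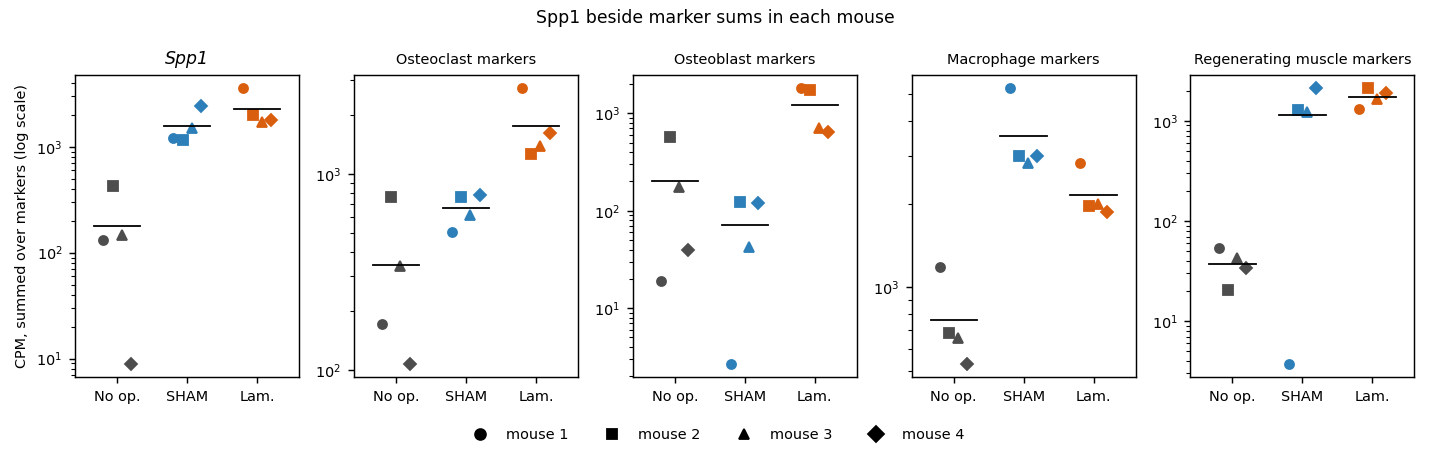
CPM on a log axis (vertical) of *Spp1* and of the summed markers of osteoclasts (7 genes), osteoblasts (7), macrophages (10) and regenerating muscle (6) in each mouse; symbols are mice 1 to 4 and lines the arithmetic means. Osteoclast and osteoblast sums are highest in the 4 Laminectomy mice, macrophage sums in the 4 SHAM mice, and SHAM mouse 1 has almost no regenerating muscle signal.

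Muscle markers changed in the same comparisons: 7 of 7 markers of mature muscle fibres fell and 6 of 6 markers of regenerating muscle rose in both operated groups, and 5 of 7 fibroblast markers rose and 1 fell in both. Without overlap, 0 of the 6 regenerating muscle markers were higher in SHAM than in No operation mice. Under the alternatives 3 to 6 of them were called higher in SHAM mice. SHAM mouse 1 summed to 3.77 CPM for these markers, below the 20.7 to 53.5 CPM of No operation mice. The 10 genes that mark macrophages resident in tissue did not follow the general markers: 4 rose and 3 fell in SHAM mice, and none rose and 4 fell in Laminectomy mice. *Mrc1*, the mannose receptor and the most abundant of them, was at 170 ± 90.8 CPM (SD, n = 4) in No operation, 637 ± 259 CPM in SHAM and 256 ± 54.9 CPM in Laminectomy mice, and rose in SHAM mice by 1.91 on the log2 scale (adjusted p = 0.000849, edgeR). *Clec10a*, a lectin of macrophages and dendritic cells, also rose in SHAM mice, by 1.54 (adjusted p = 0.00696, edgeR). *Retnla*, made by alternatively activated macrophages, went from 73.1 ± 18.6 CPM (SD, n = 4) to 7.36 ± 8.39 CPM in SHAM and 0.440 ± 0.519 CPM in Laminectomy mice. *Lyve1*, a hyaluronan receptor of vessel-associated macrophages and lymphatic vessels, went from 109 ± 46.3 to 37.6 ± 25.5 and 16.8 ± 8.59 CPM. All 10 were lower on average in Laminectomy than in SHAM mice (median log2 fold change -1.52; edgeR called none, 8 had an unadjusted p below 0.05 and DESeq2 called 8). Of 6 monocyte markers 3 rose in SHAM and 2 in Laminectomy mice, and of 8 neutrophil markers 2 and 1 rose. Of the 6 endothelial markers 2 fell in each operated group, and of the 6 Schwann cell markers 1 rose in each and 1 fell in Laminectomy mice. Beside these counts, 25.7% of all genes tested were called higher and 25.1% lower in SHAM, and 24.2% and 24.4% in Laminectomy mice.

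Partners of the members were followed through lists of pathway genes. Of the 10 genes of TREM2 signalling, 10 rose in SHAM and 8 in Laminectomy mice, and none fell, with median log2 fold changes of 1.77 and 1.40. For this and the next 2 lists, the share of all genes tested called higher was 25.7% in SHAM and 24.2% in Laminectomy mice. *Tyrobp*, the adaptor of TREM2, was at 22.9 ± 11.2 CPM (SD, n = 4) in No operation, 140 ± 32.1 CPM in SHAM and 108 ± 16.9 CPM in Laminectomy mice, log2 fold changes of 2.61 (SE 0.33, adjusted p = 5.45e-05, edgeR) and 2.24 (SE 0.33, adjusted p = 0.000167, edgeR). The kinase *Syk* rose by 1.78 and 1.22. Among 5 other Trem receptors, 2 rose in each operated group, *Trem1* of neutrophils and monocytes by 2.97 and 1.79. Of 5 tested sheddases, proteases that can cut TREM2, GPNMB or osteopontin, 4 rose in SHAM and 5 in Laminectomy mice, among them *Mmp12*, the macrophage elastase, by 3.22 and 2.80. Under the alternatives, Trem receptors called higher numbered 0 to 2 in SHAM and 0 to 3 in Laminectomy mice. Sheddases called higher numbered 4 to 5 and 2 to 5. *Mmp9* was at 152 ± 203 CPM in No operation, 382 ± 137 CPM in SHAM and 953 ± 468 CPM in Laminectomy mice, and was called in Laminectomy mice alone (2.65, SE 0.97, adjusted p = 0.0329, edgeR); the difference between the operated groups was not called (adjusted p = 0.508, edgeR).

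Of 10 tested receptors of osteopontin, 4 rose and 2 fell in SHAM mice, and 4 rose and 1 fell in Laminectomy mice, where about as many of all genes tested went each way (25.7% and 25.1% in SHAM, 24.2% and 24.4% in Laminectomy mice). *Cd44* rose by a log2 fold change of 1.90 and 1.65 and *Itga5* by 1.61 and 1.60, while *Itgb1*, the most abundant, rose by 0.51 and 0.57. *Itgb6*, an integrin subunit of epithelia, fell in SHAM mice by 2.12 on the log2 scale and had a log2 fold change of -1.35 in Laminectomy mice (adjusted p = 0.0552, edgeR). Of the leukocyte integrins related to *Itgax*, 2 of 4 rose in both groups, *Itgam* by 2.37 and 1.55 and *Itgb2* by 2.18 and 1.79.

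Further genes of the lipid-associated state rose in most cases: 16 of 21 rose and 2 fell in SHAM mice, and 14 rose and 4 fell in Laminectomy mice. The scavenger receptor *Msr1* rose by 3.37 and 2.78, the inhibitory receptor *Lilrb4a* by 3.23 and 2.58, the glucan receptor *Clec7a* by 2.51 and 2.19, and *Psap*, the precursor of lysosomal saposins, by 1.41 and 1.00. Between the operated groups 2 of the 21 were higher on average in Laminectomy mice, and the median log2 fold change was -0.41; edgeR called none, 9 had an unadjusted p below 0.05 and DESeq2 called 2, both lower.

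Genes of cholesterol efflux and the LXR response, to which *Abca1* and *Apoe* belong, were called in these numbers against No operation mice: 6 of 12 rose and 1 fell in SHAM mice (25.7% and 25.1% of all genes tested), and 5 rose and 4 fell in Laminectomy mice (24.2% and 24.4%). The transporter *Abcg1* rose by 2.32 and 1.63, the phospholipid transfer protein *Pltp* by 1.72 and 0.73, and the LXR partner *Rxra* fell by 0.85 and 1.09 on the log2 scale. Between Laminectomy and SHAM mice 11 of 12 were lower on average, with a median of -0.52, and 5 of 12 were lower without overlap, against 5.07% of all genes tested. None was called by edgeR, 9 had an unadjusted p below 0.05 and DESeq2 called 2, as for *Apoe* and *Abca1* all lower. *Pltp* was at 428 ± 104 CPM (SD, n = 4) in SHAM and 216 ± 2.01 CPM in Laminectomy mice (log2 difference -0.99, SE 0.24, adjusted p = 0.112, edgeR).

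Genes of cholesterol synthesis and uptake ran the other way. All 14 were higher on average in Laminectomy than in SHAM mice, the median log2 fold change was 0.38, and 3 of 14 were higher without overlap, against 5.05% of all genes tested; edgeR called none, 8 had an unadjusted p below 0.05 and DESeq2 called 1. Against No operation mice 1 rose and 4 fell in SHAM mice and 4 rose and 2 fell in Laminectomy mice. Among all genes tested, 25.7% were called higher and 25.1% lower in SHAM, and 24.2% and 24.4% in Laminectomy mice. *Srebf2*, the factor that drives these genes, was at 66.2 ± 5.25 CPM in No operation, 81.3 ± 14.2 CPM in SHAM and 104 ± 21.8 CPM in Laminectomy mice (SD, n = 4).

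Of the MiT/TFE factors, which drive lysosomal genes and are known to act on *Gpnmb*, *Tfe3* and *Tfec* rose in both operated groups (1.13 and 0.73 for *Tfe3*, 2.89 and 2.36 for *Tfec*) and *Tfeb* fell by 1.49 and 1.65 on the log2 scale. Of 6 galectins related to *Lgals3*, 4 rose and 2 fell in SHAM mice and 2 rose and 2 fell in Laminectomy mice. Of 9 tetraspanins, 4 rose and 2 fell in SHAM mice and 3 rose and 2 fell in Laminectomy mice; among all genes tested, 24.2% rose and 24.4% fell in the latter. The leukocyte tetraspanin *Cd53* rose by 2.52 and 1.86. *Cd81*, expressed like *Cd9* in many cell types, was not called in either comparison, at 176 ± 21.8 CPM in No operation, 150 ± 11.97 CPM in SHAM and 161 ± 15.7 CPM in Laminectomy mice.

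**Figure D5:**
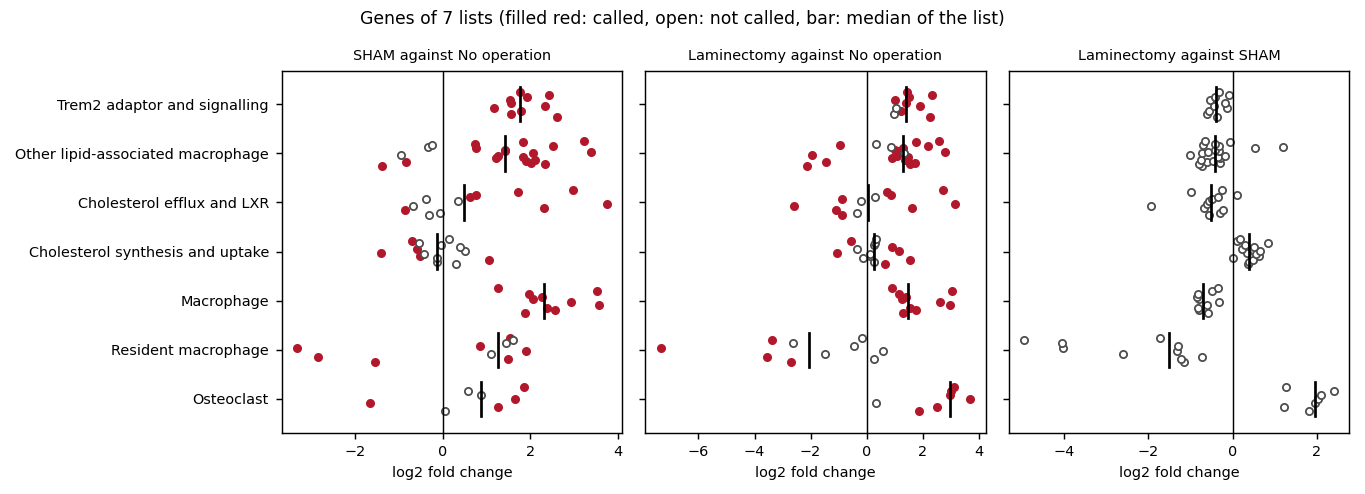
Log2 fold change (horizontal) of each tested gene of 7 lists in the 3 comparisons, with a point per gene, filled where called and open where not, and a bar at the median of the list. Between Laminectomy and SHAM mice no gene is called; cholesterol synthesis and osteoclast genes lie above 0, and TREM2 signalling, macrophage and resident macrophage genes lie below 0.

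Profiles over the 12 mice were compared by the root mean square difference of log2 CPM after each gene was centred on its own mean, among 10627 genes with a mean of at least 10 CPM. The 5 genes nearest to *Spp1* were *Cep55* (0.51), *Ccnb1* (0.56), *Hmmr* (0.63), *Pimreg* (0.66) and *Cdk1* (0.66), all genes of cell division. The nearest member was *Trem2*, at rank 103 with 1.13. The 5 genes nearest to *Trem2* were *Cd300c2* (0.21), *Ms4a7* (0.28), *Havcr2* (0.29), *Timp1* (0.31) and *Tlr1* (0.34), and the nearest members were *Lgals3* at rank 62 (0.66), *Itgax* at rank 75 and *Fabp5* at rank 81. The 12 points share the step between No operation and operated tissue, so these distances describe the libraries and carry no test.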

How the data were processed

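Polyadenylated RNA of 12 mice was sequenced by the authors from stranded libraries on an Illumina HiSeq. The submitters' processing notes name STAR 2.6.1b, featureCounts 2.0.1, DESeq2 1.30.1 and GRCm38 (mm10). The authors deposited estimated counts per gene, not normalised, for 18996 genes; 10.2% of the values, in 2933 genes, were not whole, and the sources used here name no step that makes such values. They were rounded to whole numbers, since the planned tests had assumed counts. The study gives 3 mice per group without naming them, so all 4 were used. Groups and mouse numbers came from the labels.

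Genes were filtered by filterByExpr (4231 removed), scaled by TMM and fitted with edgeR 4.0.16 (glmQLFit and glmQLFTest, R 4.3.3), all 12 mice in a single fit. The standard error is the absolute log2 fold change divided by the square root of F. The 95% intervals are 1.96 standard errors wide to each side, a normal approximation that is narrower than the F test would give. All edgeR p-values in the text are adjusted by Benjamini-Hochberg over the 14765 genes tested unless called unadjusted. Levels of a single gene (log2 CPM, prior count 2) were also set against each other by exact permutation, two-sided. Gene models for lengths and overlaps were GENCODE vM21 of GRCm38, and kilobases are of the longest APPRIS principal transcript with a CCDS, chosen after the merged exons proved to hold retained introns. The code was tested on simulated counts. Reads carried no molecular identifiers, so depth speaks to counting error alone, and p-values measure the spread between these mice.

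The 10 genes and 26 lists were chosen with earlier results of these data known. The 26 lists hold 201 different genes, 5 of them in more than 1 list and none of them a member. From each list the gene of highest mean CPM and up to 3 more of largest change among called genes with a mean of at least 10 CPM could be named, together with *Tyrobp*, *Fabp4* and the 5 nearest profiles to *Spp1* and *Trem2*. Alternatives were DESeq2 1.42.0, other scalings and filters, only the 2 groups compared, the mouse number as a block, a log2 fold change above 1, other macrophage references, and leaving out each mouse. DESeq2 gave neither a p nor an adjusted p for *Spp1* in any comparison, and this was kept as missing. Its log2 fold changes were 3.15 in SHAM and 3.69 in Laminectomy against No operation, and 0.53 between Laminectomy and SHAM mice. Proteins were not analysed here.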

Additional observations from a re-analysis of the deposited data

Results flagged for a closer look

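In 7 of 30 groups of 4 mice, 1 mouse of a member lay far from the other 3 by Dixon's test on log2 CPM at the 95% level; chance flags about 1 in 20 groups, and the members share mice. *Gpnmb* was at 37.0 CPM in No operation mouse 4 against 77.1 to 88.4 CPM in the other mice of the group, and at 300.1 CPM in SHAM mouse 1 against 441 to 461 CPM. *Abca1* was at 809 CPM in SHAM mouse 1 against 290 to 344 CPM, so this mouse was low in *Gpnmb* and high in *Abca1*. Laminectomy mouse 1 was high in *Lgals3* (482 CPM against 304 to 323 CPM) and in *Cd9* (187 CPM against 149 to 152 CPM). *Cd9* was at 169 CPM in SHAM mouse 4 against 137 to 141 CPM, and *Cd63* at 552 CPM in SHAM mouse 3 against 584 to 589 CPM, both within a narrow range.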

How the results depend on the processing

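Members called against No operation numbered 8 or 9 in both comparisons under every alternative (8 with DESeq2, which gave no adjusted p for *Spp1*). Between Laminectomy and SHAM mice 0 were called under all alternatives but DESeq2, which called 2 (*Apoe* at -0.81 and *Abca1* at -1.09). Leaving out each mouse in turn, log2 fold changes changed sign for *Cd9* in SHAM against No operation (-0.0659 to 0.18) and, between Laminectomy and SHAM, for *Gpnmb* (-0.15 to 0.0768), *Cd63* (-0.0856 to 0.00546) and *Itgax* (-0.13 to 0.25). *Abca1* in Laminectomy against No operation lost its call without No operation mouse 2, 3 or 4, SHAM mouse 2, or Laminectomy mouse 1, 3 or 4 (0.73 to 0.82, adjusted p = 0.05 to 0.107, edgeR); the cause was not tested. Scaling by total counts moved the median log2 fold change of all genes against No operation to 0.25 in SHAM and 0.33 in Laminectomy mice (5179 higher and 2671 lower, against 3799 and 3703; 5456 and 2347, against 3578 and 3605), and turned *Gpnmb* to 0.0267 and *Cd63* to 0.0315 between the operated groups. Relative to macrophage markers, with *Csf1r* alone *Apoe* was at 0.20 in SHAM and *Cd63* at 0.11 in Laminectomy against No operation. With *Cd68* alone *Gpnmb* was at -0.47, *Lgals3* at -0.25 and *Itgax* at -0.46 in SHAM and at -0.15, -0.31 and -0.0251 in Laminectomy against No operation, and between the operated groups *Trem2* was at -0.0827 and *Lgals3* at -0.0598. Without the C1q genes *Gpnmb* was at -0.0425 and *Itgax* at -0.0332 in SHAM mice. Whether mice of the same number were paired could not be told. In their deviations from the group means, same-numbered mice correlated between -0.228 and 0.352 (median 0.14). Mice of different numbers correlated between -0.454 and 0.346 (median -0.0437). A fit with the replicate block called 9, 9 and 0 members, changed no call of a member (over all genes 7442 and 7153 were called against No operation, compared with 7502 and 7183) and put *Itgax* at -0.0018 between the operated groups.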
